A study of Mus musculus with 3 samples.

Results

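The insulin-like growth factor (IGF) system was read from RNA-seq of wounded primary mouse fibroblasts through 10 genes, namely the ligands Igf1 and Igf2, the receptors Igf1r and Igf2r, and the binding proteins Igfbp2, Igfbp3, Igfbp4, Igfbp5, Igfbp6 and Igfbp7. They were chosen by name, and all 10 were found among the 43472 rows of the deposited table. The cells came from the tail tips of C57BL/6 mice and were scratched in culture, as a model of a wound. They then received the soluble micrograft (MG), a cell-depleted extract of minced mouse skin diluted 1:10 in growth medium, together with 1 μM PD0325901 for 5 h. PD0325901 inhibits the kinase MEK, which activates ERK. The growth medium held fetal bovine serum, which is itself a source of growth factors. The condition, MG + PD0325901, is covered by 3 libraries labelled replicates 1, 2 and 3. The sources used here do not say whether these libraries came from separate mice. Samples without MG or without the inhibitor were not analysed here, so levels and their spread are described and no effect of MG or of PD0325901 was computed.

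IGF-1 and IGF-2 are small secreted hormones related to insulin. Both signal through IGF1R, a receptor tyrosine kinase that feeds the PI3K-AKT and the RAS-ERK pathways, and IGF2R, which is also the large mannose-6-phosphate receptor, takes up IGF-2 for breakdown in lysosomes. The IGFBPs bind the ligands outside the cell, hold them away from the receptor or store them near it, and release them when proteases such as PAPP-A cut them. IGFBP7 shares the fold of the family but binds the IGFs weakly.

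The libraries held 22540518, 27037783 and 17244505 reads on genes in replicates 1, 2 and 3, recovered from normalized counts, that is, read counts divided by 1 size factor per library. A count of 0 allows up to 3 reads, or 2.61, 2.11 and 3.56 normalized counts in replicates 1, 2 and 3, and such limits cover counting error only. Detection required 10 or more normalized counts in each of the 3 libraries. Replicate 2 stood apart from the other libraries, being more than 2-fold above or below both in 10.1% of 13154 genes, against 4.26% for replicate 1 and 3.58% for replicate 3. Results that rest on it are therefore given with and without it. All 10 fibroblast markers were detected. Of markers of other cells, 1 of 8 for keratinocytes (Krt10), 1 of 7 for leukocytes (Cd68), 0 of 8 for endothelial cells, 2 of 6 each for skeletal muscle (Des, Acta1) and adipocytes (Fabp4, Pparg) and 7 of 8 for cartilage and tendon passed this minimum. Over all 43472 rows, 28.1% passed this minimum, or 60.1% of the rows with any read. In bulk RNA, fewer cells of a type and less RNA per cell cannot be told apart.

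Of the 10 IGF genes, 9 were detected, against 28.1% of all 43472 rows and 60.1% of the rows with any read. Igf2 did not pass. Together the 10 genes took 0.364%, 0.387% and 0.277% of the reads in replicates 1, 2 and 3. Highest and lowest library differed by more than 2-fold in 4 of the 9, namely Igf2r, Igfbp2, Igfbp3 and Igfbp6, against 21.6% of all 12204 detected genes. Without replicate 2 there were 2, Igfbp3 and Igfbp6, against 6.39%. On the scale of log2(normalized count + 1) the median SD over the 9 genes was 0.51, against 0.30 over all detected genes. Detection by this rule requires every library, so a shared set of detected genes follows from it. Igf2 reached 10 normalized counts in replicate 3 only, and the amounts of several binding proteins differed between the libraries.

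Igf1, the ligand that fibroblasts and liver are known to make, was measured at 1210, 908 and 1339 normalized counts in replicates 1, 2 and 3, from 1394, 1288 and 1130 reads. It lies on chromosome 10 from 87858265 to 87937042 (plus strand, GRCm38). The mean was 1152 ± 222 (SD, n = 3), the lowest library was replicate 2, and the highest was 1.48-fold above it. The antisense gene Igf1os overlaps it and had at most 0.705 normalized counts. Its SD of log2 values, 0.29, was near the median of all detected genes.

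Igf2, the ligand best known from fetal growth, had 5.21, 7.05 and 11.9 normalized counts, on 6, 10 and 10 reads in replicates 1, 2 and 3. The gene is imprinted and lies on chromosome 7 from 142650766 to 142666816 (minus strand). All 3 libraries were above the limit that a count of 0 allows, but the counting error of the library with the fewest reads was 40.8%, so no order of the libraries can be read. Per kb of exon, Igf1 was 134-fold, 74.4-fold and 65.3-fold above Igf2 in replicates 1, 2 and 3. In the annotation used here Igf2 shares exons with Gm49394 on the same strand and with the antisense gene Igf2os, which was listed at 0 reads in every library, and reads on shared exons could be assigned differently. Igf2 and H19, a noncoding RNA whose expression from the other parental chromosome is governed by the same control region, are 72.6 kb apart. H19 had 6.08, 48.6 and 13 normalized counts, more than 2-fold above both others in replicate 2. Ins2, the insulin gene beside Igf2, had 0 reads in each library, as did Tnp1, a sperm gene near Igfbp5.

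Igf1r, the signalling receptor, was present at 638, 685 and 830 normalized counts in replicates 1, 2 and 3 and lies on chromosome 7 from 67952827 to 68233668 (plus strand). The mean was 718 ± 99.8 (SD, n = 3). With a 1.30-fold range it was one of the steadier members, and its SD of log2 values was above that of 27.5% of detected genes. Replicates 1 and 2 did not differ beyond counting error (adjusted p = 0.20, two-sided exact binomial test on reads with Benjamini-Hochberg adjustment over all genes), with a log2 difference of 0.10. Insr, the insulin receptor with which IGF1R can form hybrids, had 334, 524 and 294 normalized counts. Per kb of exon, Igf1r was 1.56-fold, 1.07-fold and 2.31-fold above Insr, so Igf1r was the higher of the pair in each library. Insrr, the orphan relative of both, had 1 read in replicate 1 and none in the others.

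Igf2r reached 1256, 2544 and 1895 normalized counts in the 3 replicates, averaging 1898 ± 644 (SD, n = 3), and lies on chromosome 17 from 12682406 to 12769664 (minus strand). Replicate 2 was the highest library, 2.03-fold above replicate 1, just past the 2-fold limit, whereas Igfbp5 with 1.87-fold lay just below it. Without replicate 2, the range of Igf2r was 1.51-fold. Airn, the antisense RNA known to silence the paternal Igf2r copy, overlaps the gene and had 6.95, 12.0 and 20.1 normalized counts. Per kb of exon, Igf2r was 3.55-fold, 6.70-fold and 4.12-fold above Igf1r, so the clearance receptor stood above the signalling receptor in all 3 libraries. Per kb of coding sequence the ratios were smaller, at 1.08, 2.05 and 1.26. Of its partners in lysosomal sorting, 0 of the 4 genes of the mannose-6-phosphate list (M6pr, Gnptab, Gnptg and Nagpa) had a range over 2-fold, against 21.6% of all detected genes, a share too low to set this short list apart. M6pr, the smaller mannose-6-phosphate receptor, had 4602, 3747 and 4007 normalized counts and was lowest in replicate 2.

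**Figure D1:**
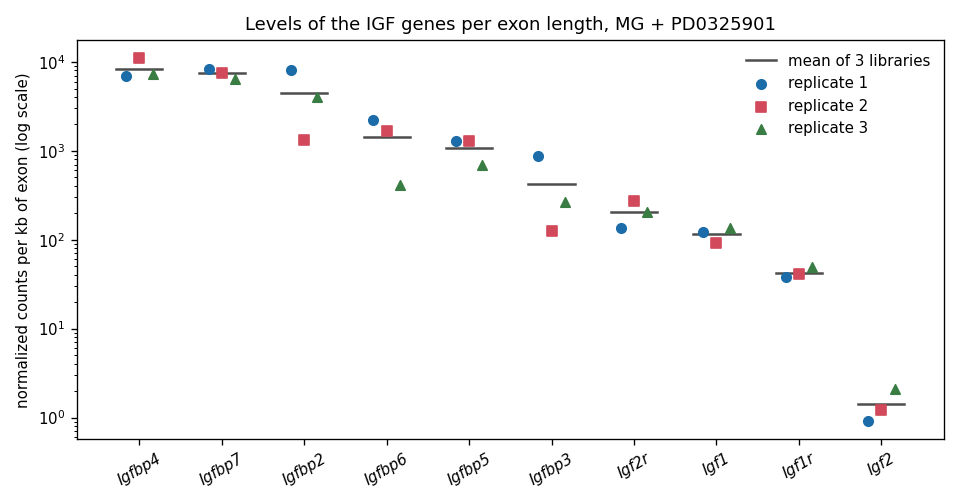
Level of each IGF gene in normalized counts per kb of exon (log axis) in replicates 1, 2 and 3 of MG + PD0325901, with the mean of the 3 libraries as a bar. The means run from 8335 for Igfbp4 to 1.40 for Igf2, and the points of Igfbp2, Igfbp3 and Igfbp6 are the most spread.

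Levels were compared between genes per kb of exon, since longer transcripts collect more reads. By the mean of the 3 libraries the order was Igfbp4 (8335 ± 2255 normalized counts per kb, SD, n = 3), Igfbp7 (7385 ± 886), Igfbp2 (4491 ± 3407), Igfbp6 (1434 ± 932), Igfbp5 (1081 ± 342), Igfbp3 (422 ± 397), Igf2r (204 ± 69.2), Igf1 (116 ± 22.4), Igf1r (42.7 ± 5.95) and Igf2 (1.40 ± 0.599). Among 11620 detected genes with an exon length, the means of Igfbp4, Igfbp7 and Igfbp2 were at percentiles 99.2, 99.1 and 98.4. Among neighbours in this order, the ranges over the libraries did not overlap for Igf1 and Igf1r or for Igf1r and Igf2, and overlapped for the other 7 pairs. Within libraries, 3 of these 7 kept their order in all 3, namely Igfbp7 over Igfbp2 (1.02-fold, 5.64-fold and 1.59-fold), Igfbp5 over Igfbp3 (1.47-fold, 10.04-fold and 2.58-fold) and Igf2r over Igf1 (1.10-fold, 2.98-fold and 1.51-fold), and the other 4 did not. With 3 values per gene, an exact two-sided permutation test cannot go below p = 0.1, so no p is given. Igfbp4 and Igfbp7 exchanged places in replicate 1, where Igfbp7 had rank 1 and Igfbp4 rank 3. Igf1 was 3.22-fold, 2.25-fold and 2.74-fold above Igf1r per kb in replicates 1, 2 and 3. Ranks 8, 9 and 10 were held by Igf1, Igf1r and Igf2 in every library. The exon length of Igf1, 9904 bases, is mostly noncoding, and per kb of coding sequence Igf1 moved from rank 8 to rank 5, above Igf2r, Igfbp3 and Igfbp6. On that scale the mean ratio of Igf1 to Igf1r was 13.4, against 2.73 per kb of exon, that of Igf1 to Igf2 was 183, against 91.3, and that of Igf2r to Igf1 was 0.116, against 1.86.

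The 120 bases before the start site are shown for the binding protein with the highest level (Igfbp4), for the pair that was lowest together in replicate 2 (Igfbp2 and Igfbp3) and for the receptor that was highest there (Igf2r). They are RefSeq sequences of GRCm38.p6, in which all 10 genes were matched, given 5′ to 3′ on the strand of the gene. The positions are chr11:99041124-99041243 (plus strand) for Igfbp4, chr1:72824360-72824479 (plus) for Igfbp2, where the first of 2 listed starts was taken, chr11:7213924-7214043 (minus) for Igfbp3 and chr17:12769707-12769826 (minus) for Igf2r. Capitals mark the motifs that were searched on both strands, namely the TATA box TATAAA, the GC box GGGCGG, the CCAAT box, the AP-1 site TGACTCA and the E-box CACGTG.
Igfbp4: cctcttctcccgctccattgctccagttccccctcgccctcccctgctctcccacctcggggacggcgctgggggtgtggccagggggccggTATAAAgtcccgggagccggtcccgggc
Igfbp2: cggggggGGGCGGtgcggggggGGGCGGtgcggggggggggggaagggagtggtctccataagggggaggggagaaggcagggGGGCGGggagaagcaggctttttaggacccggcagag
Igfbp3: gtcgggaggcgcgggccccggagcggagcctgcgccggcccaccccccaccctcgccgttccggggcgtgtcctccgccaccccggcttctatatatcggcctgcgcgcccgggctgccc
Igf2r: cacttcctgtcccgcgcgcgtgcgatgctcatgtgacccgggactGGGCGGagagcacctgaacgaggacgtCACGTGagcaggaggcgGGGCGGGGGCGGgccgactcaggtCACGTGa
In these letters Igfbp4 held TATAAA, starting 28 bases before the start site. GGGCGG stood 3 times before Igfbp2 and 3 times before Igf2r, where 2 copies follow each other directly. CACGTG stood 2 times before Igf2r, starting 48 and 7 bases before the start site. None of the 5 motifs was found before Igfbp3 within 250 bases. In the 250 bases before each of 32851 listed starts of all genes, 12.4% held TATAAA, 32.7% GGGCGG, 33.8% CCAAT, 4.46% TGACTCA and 6.02% CACGTG. Among the IGF genes, 2, 5, 3, 1 and 2 of 10 held them before any of their listed starts. These are counts of genes and not of starts, so they cannot be set directly against the shares. The gene with TGACTCA was Igfbp2, before its second listed start. A match is a description of the letters and not a site shown to be bound.

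Igfbp4, whose product is the main substrate of PAPP-A, had 30282, 48266 and 31870 normalized counts in replicates 1, 2 and 3, on 34873, 68500 and 26888 reads. It lies on chromosome 11 from 99041244 to 99054392 (plus strand). The mean was 36806 ± 9956 (SD, n = 3), and replicate 2 was 1.55-fold above the mean of the other libraries, which were 1.05-fold apart. Replicate 2 was the highest library for 2 of the 9 detected members, this gene and Igf2r, against 40.6% of all detected genes, and the lowest for 3, Igf1, Igfbp2 and Igfbp3, against 37.3%. Replicate 1 was the highest for 5, the binding proteins other than Igfbp4 (for Igfbp5 replicate 2 is the highest with libraries scaled to equal totals), against 31.5%, and the lowest for 3, Igf1r, Igf2r and Igfbp4, against 34.5%. Replicate 3 was the highest for Igf1 and Igf1r, against 27.9%, and the lowest for Igfbp5, Igfbp6 and Igfbp7, against 28.3%. Each library was thus the highest for some members and the lowest for others.

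Igfbp7, a secreted protein deposited in vessel walls and matrix, had 9967, 8991 and 7828 normalized counts, averaging 8929 ± 1071 (SD, n = 3). With a 1.27-fold range it varied less between the libraries than the other 9 members, although with libraries scaled to equal totals Igf1r was steadier (1.24-fold against 1.33-fold), and its SD of log2 values, 0.17, was above that of 23.1% of detected genes. It lies on chromosome 5 from 77349240 to 77408041 (minus strand), and its exons overlap those of Polr2b on the opposite strand, which had between 651 and 1180 normalized counts. Whether the counting used strand is not given in the sources used here, so reads in the shared stretch could belong to either gene.

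Igfbp2, a carrier that also binds integrins, had 14945, 2436 and 7505 normalized counts in replicates 1, 2 and 3, on 17211, 3457 and 6332 reads. The gene lies on chromosome 1 from 72824503 to 72852474 (plus strand). Replicate 2 was 4.61-fold below the mean of the other libraries, and replicate 1 was 1.99-fold above replicate 3. The mean was 8295 ± 6292 (SD, n = 3), or 11225 ± 5261 (SD, n = 2) without replicate 2.

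Igfbp3, the main carrier of IGFs in serum, had 2732, 397 and 831 normalized counts, on 3146, 563 and 701 reads, and lies on chromosome 11 from 7206086 to 7213923 (minus strand). The order of the libraries was that of Igfbp2. Replicate 1 was more than 2-fold above both others and replicate 2 more than 2-fold below both others. The mean was 1320 ± 1242 (SD, n = 3), and without replicate 2 the range was 3.29-fold. Counting error was at most 4.21%, well under this spread. Igfbp1, which lies 3.54 kb from Igfbp3 and is known as a liver gene, had 0 reads in each library.

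The ratio of Igfbp2 to Igfbp3 per kb was 9.27, 10.4 and 15.3 in replicates 1, 2 and 3, so their proportion moved less than either level did, at ranges of 6.13-fold and 6.87-fold. Igfbp4 took the opposite course. Its ratio to Igfbp2 per kb was 0.847, 8.29 and 1.78, and that to Igfbp3 was 7.86, 86.2 and 27.2.

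Most markers of cartilage and tendon were lowest in replicate 2, as Igfbp2 and Igfbp3 were. Of the 8 listed markers 6 were more than 2-fold below both others in replicate 2, against 4.87% of 13154 genes, with Acan at 0 reads there. Of these 6, Col2a1 and Scx were highest in replicate 1, as were Igfbp2 and Igfbp3, and Acan, Comp, Fmod and Mkx in replicate 3. The summed level of the 8 markers was 26693, 1869 and 15801 normalized counts in replicates 1, 2 and 3. Sox9 and Tnmd were the exceptions, with 171, 149 and 117 and with 124, 127 and 107 normalized counts. Other markers followed replicate 2 or replicate 1 as well. The 10 fibroblast markers had a sum of 483446, 505254 and 745513. Of these, Lum (5073, 289 and 1164) and Dcn (3661, 1723 and 3659) were more than 2-fold below both others in replicate 2, against 4.87% of genes. Thy1 (2031, 15760 and 1652) was more than 2-fold above both others there, against 5.2%. The adipocyte list had a sum of 2225, 460 and 442 normalized counts, mostly from Fabp4, with Cfd and Lep at 0 in each library. Pparg, the other detected adipocyte marker, was instead highest in replicate 2 (36.5, 83.1 and 20.1). The muscle gene Des (212, 1208 and 77.0) and the endothelial gene Tek (6.95, 185 and 2.37) were highest in replicate 2, while Myod1, Tie1, Emcn and Cldn5 had 0 reads in each library. The summed levels of these 2 lists were 2643, 8494 and 5668 and 24.3, 194 and 7.11 normalized counts. Most of the muscle sum came from Acta1 (2429, 7286 and 5586), which was lowest in replicate 1. The part of any such cells in the levels of Igfbp2 and Igfbp3 was not tested.

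Igfbp5, which binds matrix and hydroxyapatite, had 7720, 7640 and 4119 normalized counts, averaging 6493 ± 2057 (SD, n = 3). It lies on chromosome 1 from 72857932 to 72874884 (minus strand), 5.46 kb from Igfbp2, with the ends of both genes facing each other and no protein-coding gene between them. In replicate 3 Igfbp2 was 1.99-fold and Igfbp5 1.87-fold below replicate 1, whereas the neighbours parted in replicate 2. Replicates 1 and 2, which differed 6.14-fold in Igfbp2, did not differ in Igfbp5 beyond counting error (adjusted p = 0.54, the same test, log2 difference -0.02). The ratio of Igfbp2 to Igfbp5 per kb was 6.29, 1.04 and 5.93 in replicates 1, 2 and 3.

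Igfbp6, a carrier with a preference for IGF-2 among the ligands, had 2485, 1843 and 456 normalized counts in replicates 1, 2 and 3, on 2862, 2615 and 385 reads. It lies on chromosome 15 from 102144362 to 102149511 (plus strand). Here replicate 3 and not replicate 2 stood apart, 4.04-fold below replicate 2 and 5.45-fold below replicate 1. The mean was 1595 ± 1037 (SD, n = 3). The range stayed at 5.44-fold without replicate 2, so this spread did not rest on that library. The leukocyte markers had their highest sum in replicate 3, with 26.9, 41.6 and 90.1 normalized counts. Their defining marker Ptprc was near 0, with at most 1.74 normalized counts in each library, and Cd3e had 0 reads. Laptm5 (1.74, 4.93 and 36.7) and Tyrobp (0, 2.11 and 15.4) were higher in replicate 3 than in either other library by the pair test. Cd68 (22.6, 33.1 and 27.3), the only marker of this list that was detected, was highest in replicate 2. It did not differ between any libraries by that test. The part of such cells in the level of Igfbp6 was not tested.

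**Figure D2:**
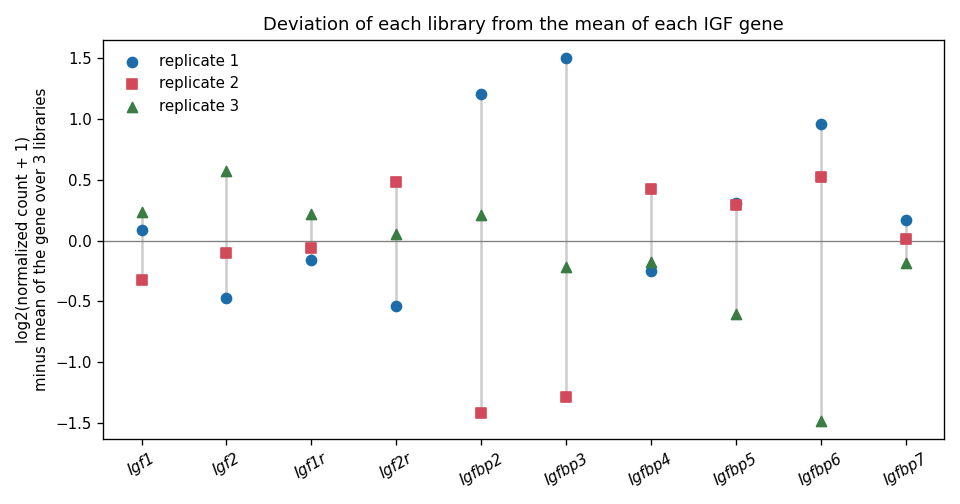
Deviation of each library from the mean of each gene over the 3 libraries, in log2(normalized count + 1), for the ligands, receptors and binding proteins. Replicate 2 is the lowest point for Igfbp2 and Igfbp3 and the highest for Igf2r and Igfbp4, while replicate 3 is the lowest for Igfbp5, Igfbp6 and Igfbp7.

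Taking the detected genes as a list, replicate 2 was more than 2-fold from both others in 2 of 9, Igfbp2 and Igfbp3, both below, against 4.87% of 13154 genes below, and above both in none, against 5.2%. Replicate 1 stood apart in Igfbp3, above, against 2.29% of genes above and 1.97% below. Replicate 3 stood apart in Igfbp6, below, against 2.3% of genes below and 1.28% above. With the exact binomial test (adjusted p of at most 0.05) and a difference over 2-fold, 3 of 10 genes differed between replicates 1 and 2, namely Igf2r, Igfbp2 and Igfbp3, against 19.8% of all genes tested. Between replicates 1 and 3 there were 2, Igfbp3 and Igfbp6, against 8.78%, and between replicates 2 and 3 there were 3, Igfbp2, Igfbp3 and Igfbp6, against 16.1%. This test compares libraries and not conditions, and it covers counting error only. The number of such genes is small in each comparison, and no statement on the family as a whole rests on it.

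**Figure D3:**
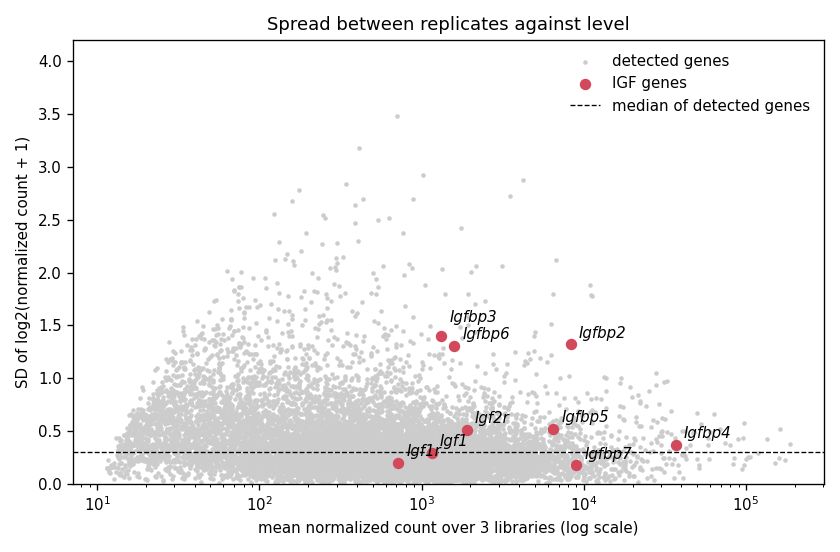
SD of log2(normalized count + 1) between the 3 libraries against the mean normalized count (log axis), for all 12204 detected genes in grey and the 9 detected IGF genes in red, with the median of all genes, 0.30, as a dashed line. Igfbp2, Igfbp3 and Igfbp6 lie at SDs from 1.30 to 1.40, at percentiles of 98.0 to 98.5 of detected genes, and Igfbp7, Igf1r and Igf1 lie below the line.

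The summed level of the 6 binding proteins was 27586, 22741 and 19116 normalized counts per kb in replicates 1, 2 and 3, averaging 23148 ± 4249 (SD, n = 3). It was 226-fold, 248-fold and 141-fold above Igf1 per kb of exon but 33.9-fold, 48.0-fold and 24.0-fold above it per kb of coding sequence, and this compares transcripts and not proteins. The sum varied more than Igfbp7 and less than the other parts. Igfbp4 made up 24.9%, 48.1% and 37.8% of it in replicates 1, 2 and 3, and Igfbp2 made up 29.3%, 5.80% and 21.3%. Igfbp7 held a share of 32.2 ± 2.05% (SD, n = 3), between 29.9% and 33.9%. Igfbp6 had shares of 8.10%, 7.29% and 2.15%, Igfbp5 of 4.66%, 5.59% and 3.59%, and Igfbp3 of 3.16%, 0.557% and 1.39%. Igfbp4 and Igfbp7 together thus made up most of the sum in each library, and the place of Igfbp2 in replicate 1 was taken largely by Igfbp4 in replicate 2.

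**Figure D4:**
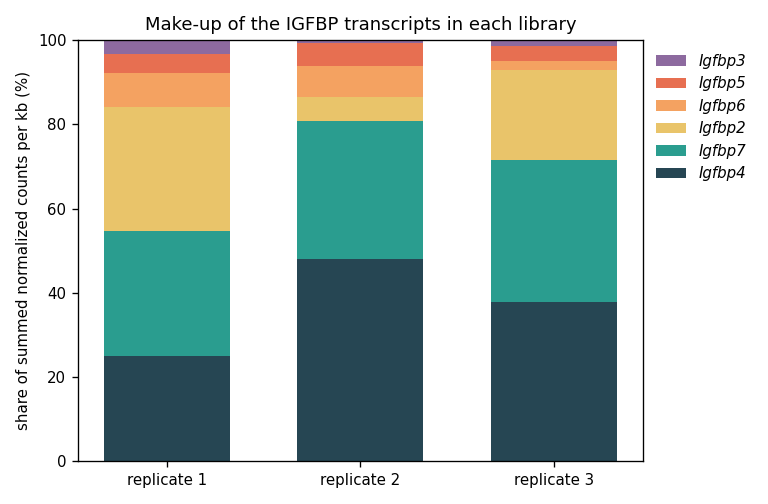
Share of each binding protein gene in the summed normalized counts per kb of Igfbp2 to Igfbp7 (percent), 1 bar per library. Igfbp7 keeps a share between 29.9% and 33.9%, while Igfbp2 has 29.3%, 5.80% and 21.3% and Igfbp4 24.9%, 48.1% and 37.8% in replicates 1, 2 and 3.

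Genes that act on IGFBPs varied between the libraries. Of 10 proteases and protease inhibitors, 9 were detected, against 28.1% of all rows and 60.1% of those with any read. A range over 2-fold was seen in 7 of these, or 3 without replicate 2, against 21.6% and 6.39% of all detected genes. Pappa, the metalloprotease that cuts IGFBP4 and IGFBP5, had 717, 705 and 296 normalized counts in replicates 1, 2 and 3, so replicate 3 was more than 2-fold below both others. Its relative Pappa2, which cuts IGFBP3 and IGFBP5, had 37.3, 25.4 and 17.8. The stanniocalcins, which bind and block PAPP-A, were highest in replicate 2, with 28.7, 76.8 and 33.2 normalized counts for Stc1 and 103, 379 and 194 for Stc2. Replicate 2 was also the highest library for Igfbp4 itself. Htra1, a secreted serine protease that cuts IGFBPs and matrix proteins, had 4104, 2324 and 11325 normalized counts. Its level in replicate 3, the library with the lowest Igfbp5, Igfbp6 and Igfbp7, was more than 2-fold above both others. Htra3 went the other way, with 561, 1053 and 356. Adam12, which cuts IGFBP3 and IGFBP5, had 545, 1652 and 737 normalized counts, while Adam9 with 4740, 6241 and 5298 and the lysosomal protease Ctsd with 27756, 20816 and 31532 kept within 2-fold. Adam28 was not detected, with at most 4.23. A link between the levels of these genes and those of the binding protein transcripts was not tested.

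Among the other IGF and insulin receptor genes, 4 of 9 were detected, namely Insr, Kazald1, Igf2bp2 and Igf2bp3. This compares with 28.1% of all rows and 60.1% of those with any read. Igfals, the liver-made subunit of the circulating IGF complex, had 0 reads in each library, and Igfbpl1 had at most 1.19 normalized counts. The mRNA-binding proteins of the IGF2BP family, which bind Igf2 and many other transcripts, were all highest in replicate 2. That library was also the highest in 40.6% of all detected genes. Igf2bp1 showed 18.2, 189 and 3.56 normalized counts in the 3 replicates. The values of Igf2bp3 were 114, 504 and 130, and those of Igf2bp2 were 643, 1148 and 706. Igf2bp1 and Igf2bp3 were more than 2-fold above both others in replicate 2, and Igf2bp2, the member known to persist in adult tissue, was not. Without replicate 2 the ranges of Igf2bp2 and Igf2bp3 were 1.10-fold and 1.14-fold, whereas Igf2bp1 at its low counts kept a range of 4.22-fold.

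Signalling genes below IGF1R were detected in 27 of 28 cases, against 28.1% of all rows and 60.1% of those with any read. The exception was Irs4 with 0 reads. A range over 2-fold was seen in 5 of the 27, namely Irs1, Grb14, Pik3r3, Pdpk1 and Foxo1, and in 1, Grb14, without replicate 2. These counts were no higher than the shares of all detected genes, 21.6% and 6.39%. Their median SD of log2 values was 0.35, against 0.30 for all detected genes. Irs1, the main adaptor between IGF1R and PI3K, had 396, 817 and 328 normalized counts and was more than 2-fold above both others in replicate 2. Irs2 was far lower, with 14.8, 19 and 29.6. Foxo1, a transcription factor that AKT keeps out of the nucleus, had 822, 228 and 729 normalized counts, more than 2-fold below both others in replicate 2. Akt1 with a mean of 7436 ± 1460, Grb10 with 4790 ± 1237 and Shc1 with 3538 ± 356 normalized counts (SD, n = 3) were the 3 genes of this list with the highest means. Akt2, with 1899, 1967 and 2015 normalized counts, was steady to 1.06-fold.

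The growth hormone axis, which drives Igf1 in liver, was detected in 7 of 7 genes, against 28.1% of all rows and 60.1% of those with any read. Of the 7, 4 had a range over 2-fold (0 without replicate 2), against 21.6% and 6.39% of all detected genes. Ghr, the growth hormone receptor, had 740, 1540 and 946 normalized counts, and Stat5a had 288, 583 and 309. For both genes replicate 2 was the highest library, whereas Igf1 was lowest there. The feedback inhibitors Socs1 and Socs3 were more than 2-fold below both others in replicate 2, with 65.1, 23.3 and 59.3 and with 625, 225 and 1073 normalized counts. Socs2, a target of STAT5, had 729, 626 and 440. The kinase gene Jak2 (594, 765 and 623) and Stat5b (587, 798 and 586) kept within 2-fold. Plagl1, an imprinted zinc finger gene known to raise Igf2 and H19, had 544, 230 and 663 normalized counts, lowest in the library with the highest H19.

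**Figure D5:**
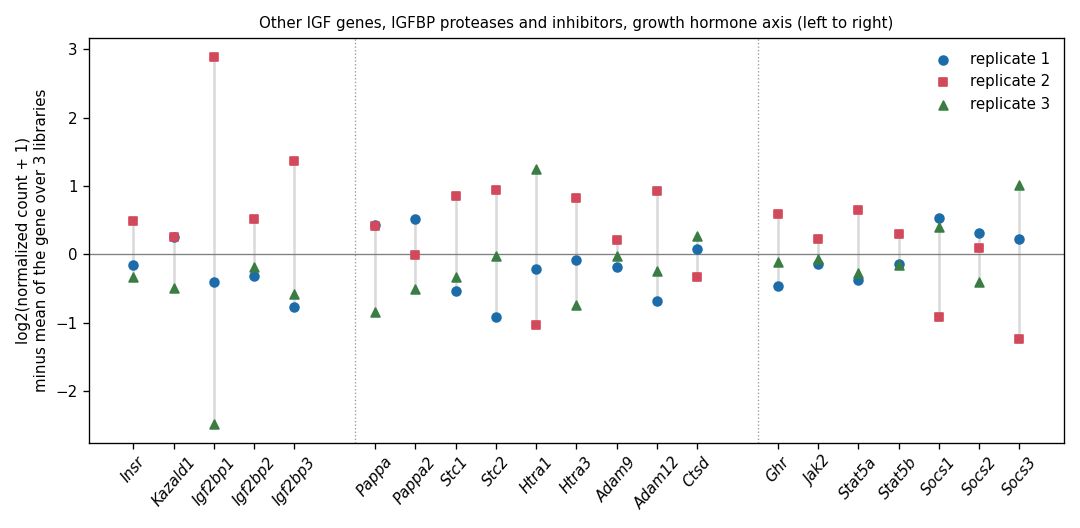
Deviation of each library from the mean of each gene over the 3 libraries, in log2(normalized count + 1), for the genes with a mean of at least 10 normalized counts among other IGF and insulin receptor genes, IGFBP proteases and their inhibitors, and the growth hormone axis. Replicate 2 is the highest point for Igf2bp1, Igf2bp2 and Igf2bp3, Stc1, Stc2, Htra3 and Adam12, and the lowest for Htra1, Socs1 and Socs3.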

How the data were processed

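RNA was sequenced from 3 libraries of 1 condition. Per the labels and the methods, the authors made stranded mRNA libraries, read 50 bp single ends, aligned them to mm10 with TopHat2 2.0.13, handled alignments with SAMtools 0.1.19.24 and counted reads per gene with HTSeq 0.5.3p3. The gene annotation, the strand setting and the libraries behind the size factors are not given in the sources used here. The deposited values are a signal, normalized counts that the authors made by dividing read counts by 1 size factor per library (1.15, 1.42 and 0.844). Another 3 columns of values per sample were not used, because no label assigned them to a sample.

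All values above 0 (100% in each library, within 0.01 reads) were multiples of what 1 read is worth, so reads were recovered. Each pair of libraries was set side by side with two-sided exact binomial tests, for genes with a sum of 10 reads or more. Ranges and positions apart used log2(normalized count + 1), the latter on genes with a mean of at least 10. Exon lengths and positions came from GENCODE M21 (GRCm38, the build of mm10), as the union of exons, and promoters from RefSeq. Python 3.11.15 (numpy 2.4.6, scipy 1.17.1, pandas 2.3.3), R 4.3.3 and edgeR 4.0.16 (TMM factors) were used, and the steps were tested on simulated data. The genes named were the 10 members, all genes of the shorter pathway lists, and from the signalling list the 3 with the highest mean, those not detected, those with a range over 2-fold, Irs1 and Irs2. Akt2 was added after its values were seen. Members and lists were chosen with earlier results of these data known. A ranking of other genes by likeness was not made, since 3 libraries are too few for a correlation. Other scalings, fold limits, pseudocounts, minimums and lengths, and each replicate left out, were tried.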

Additional observations from a re-analysis of the deposited data

How the results depend on the processing

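No paired analysis was possible because the libraries form 1 condition. The count of detected members was 9 with each replicate left out, 9 at a minimum of 100 normalized counts and 10 with any read. The count of members with a range over 2-fold, 4, ranged from 2 to 3 when 1 replicate was left out, and lowest without replicate 2. At a fold limit of 1.5, the members apart numbered 3 in replicate 1 and 2 in replicate 3. With libraries scaled to equal totals they numbered 2 in replicate 1 and 1 in replicate 2, as Igfbp2 passed and Igfbp3 missed the 2-fold limit. With no fold required, 7, 9 and 9 of 10 members differed between replicates 1 and 2, 1 and 3, and 2 and 3. Dropping the fold limit can only raise these counts, and no share over all genes was computed for this setting. The test covers counting error only, so these counts are not a result about the members. TMM scaling changed none of the counts made under the main limits. Ranks per kb moved in 9 of 50 cases. Those with coding lengths follow from the length of each gene, those without replicate 2 exchanged Igfbp4 and Igfbp7, and those without replicate 1 exchanged Igf2r and Igfbp3. With the longest transcript as length the share of Igfbp7 was 28.4%. Leaving out replicate 2 from the pathway lists and coding lengths for ratios were chosen after seeing the data. Depth limited Igf2, with 6 reads in replicate 1.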
